A study of Mus musculus with 16 samples.

Results

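Levels of each gene in brown fat and in quadriceps were compared across the 16882 genes that both deposited tables list, of 18657 listed in either. Brown fat, taken here as the submitters' brown adipose tissue, and quadriceps, a thigh muscle, came from male C57BL/6 mice aged 10 weeks and housed at room temperature. The mice were wild type or homozygous for an allele of Ppargc1a named uORF-TAA, with 4 libraries of each genotype in each tissue and 16 in all. Ppargc1a encodes PGC-1alpha, a coactivator of mitochondrial genes, and uORF stands for an upstream open reading frame. Each tissue's table gives 1 mean normalized count per gene over its 8 libraries, both genotypes pooled. Those means were scaled to the table's own total (CPM, the share of all counts in units of 1 count per M). A gene was compared as the log2 of (brown fat CPM + 1) over (quadriceps CPM + 1), called the log2 ratio below, where positive values are higher in brown fat. Paired levels are given as brown fat against quadriceps throughout.

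No values per library were analysed here, so nothing below carries a replicate error or a test, and genes are counted as past 4-fold when the log2 ratio reaches 2 in either direction. The tables were normalized separately, and tissue and any batch of library preparation or sequencing that went with it cannot be told apart. In whole tissue, fewer cells of a type and less RNA per cell cannot be told apart either. Intervals in brackets after a level are 95% exact Poisson intervals of the read number behind it, and cover counting error only. Estimated depth was 11.0 to 17.8 M counts per library in brown fat and 11.4 to 31.8 M in quadriceps (M, mega). At that depth 3 reads over a tissue's 8 libraries, the limit that a count of 0 allows, correspond to 0.0296 CPM in brown fat and 0.0185 CPM in quadriceps.

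Both tissues are rich in mitochondria and burn fatty acids, but to different ends. Brown adipocytes let protons leak back through the uncoupling protein UCP1 and so turn fuel into heat under the control of noradrenaline. Muscle fibres use the same respiratory chain to make ATP, which myosin, calcium pumps and the creatine kinase system then spend or buffer during contraction. Quadriceps of the mouse is built mainly of fast, glycolytic fibres.

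The marker genes followed the tissue labels. Ucp1 stood at 3709 CPM in brown fat (3697 to 3721) and at 0.318 CPM in quadriceps (0.237 to 0.418). Its log2 ratio of 11.46 was the highest of the 16882 genes. Adipoq, the adipocyte hormone adiponectin, stood at 1481 CPM against 28.9 CPM (28.1 to 29.8), a log2 ratio of 5.63. Scd1, the enzyme that desaturates stearoyl-CoA, had 17244 CPM against 133 CPM and the highest CPM of brown fat. In the other direction Myh4, the heavy chain of the fastest myosin, stood at 101823 CPM in quadriceps and 3330 CPM in brown fat, a log2 ratio of -4.93. Ckm, muscle creatine kinase, had 903 against 13541 CPM (log2 ratio -3.90), and Acta1, skeletal muscle actin, had 1535 against 18179 CPM (log2 ratio -3.56). Muscle mRNA was thus well above the floor in the brown fat libraries, as described further on.

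**Figure D1:**
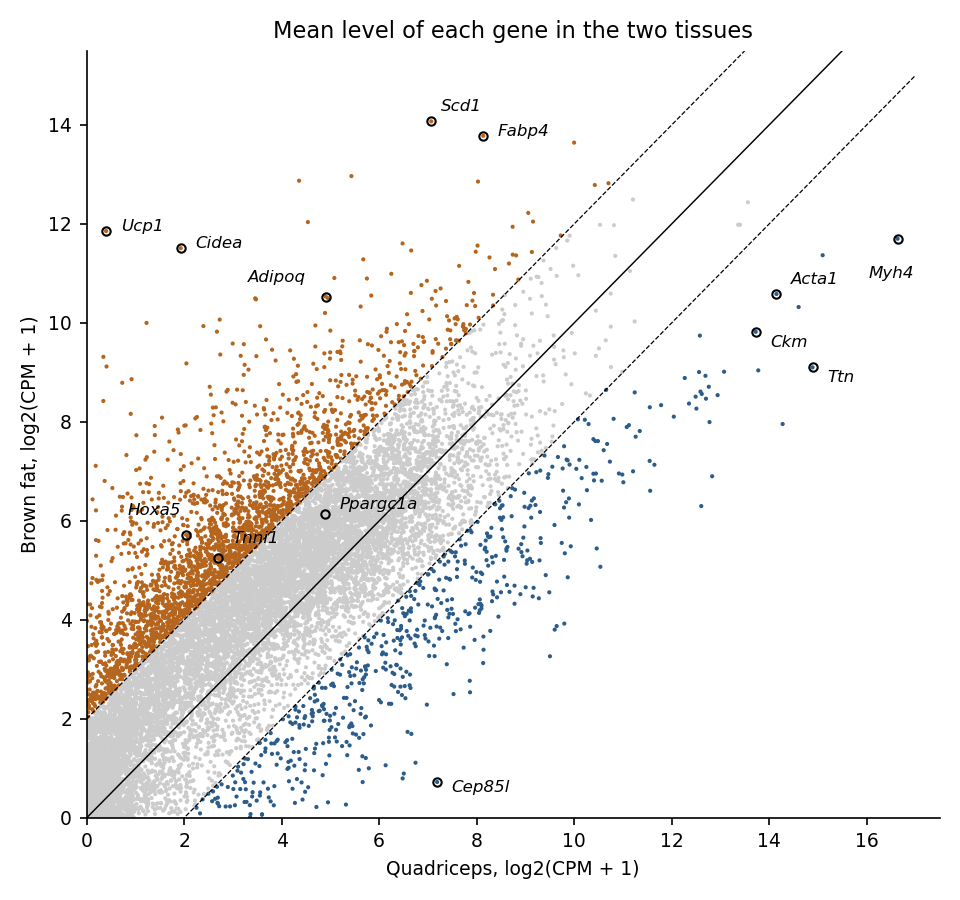
Each point is 1 of the 16882 genes, with its mean level in quadriceps on the x axis and in brown fat on the y axis, both as log2(CPM + 1). The solid line marks equal levels and the dashed lines 4-fold differences. Genes past 4-fold toward brown fat are brown and those past it toward quadriceps are blue. Ucp1 lies alone at the upper left, and Myh4 lies at the right edge but far above the bottom.

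The upstream 250 bases of these markers are printed because these genes checked the tissue labels, and they show what lies ahead of each start. They are RefSeq sequences of build GRCm38.p6, written 5′ to 3′ on the gene's strand and ending at the base before the annotated start. Ucp1 is at chr8:83290098-83290347, plus strand. Adipoq is at chr16:23146286-23146535, plus strand. Myh4 is at chr11:67237562-67237811, plus strand, Ckm at chr7:19410844-19411093, plus strand and Acta1 at chr8:123894776-123895025, minus strand. Capitals mark matches on either strand to any of 8 motifs.
Ucp1: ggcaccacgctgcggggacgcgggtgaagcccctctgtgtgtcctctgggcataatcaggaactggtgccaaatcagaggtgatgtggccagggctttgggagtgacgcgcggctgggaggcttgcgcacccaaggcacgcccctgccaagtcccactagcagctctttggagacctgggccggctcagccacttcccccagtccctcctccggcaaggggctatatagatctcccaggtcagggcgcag
Adipoq: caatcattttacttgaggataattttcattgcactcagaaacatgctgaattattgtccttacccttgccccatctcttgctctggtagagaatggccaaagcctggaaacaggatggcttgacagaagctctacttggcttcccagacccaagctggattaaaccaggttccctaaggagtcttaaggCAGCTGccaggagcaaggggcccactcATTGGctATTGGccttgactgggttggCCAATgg
Myh4: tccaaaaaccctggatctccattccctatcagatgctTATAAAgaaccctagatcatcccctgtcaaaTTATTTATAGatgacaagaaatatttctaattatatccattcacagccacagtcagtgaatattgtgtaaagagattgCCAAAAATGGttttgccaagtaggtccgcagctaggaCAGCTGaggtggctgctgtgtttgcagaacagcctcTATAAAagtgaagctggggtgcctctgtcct
Ckm: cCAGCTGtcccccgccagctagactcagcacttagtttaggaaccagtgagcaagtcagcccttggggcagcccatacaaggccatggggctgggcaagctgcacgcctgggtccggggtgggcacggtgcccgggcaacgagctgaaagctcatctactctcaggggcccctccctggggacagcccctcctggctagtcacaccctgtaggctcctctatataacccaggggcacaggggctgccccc
Acta1: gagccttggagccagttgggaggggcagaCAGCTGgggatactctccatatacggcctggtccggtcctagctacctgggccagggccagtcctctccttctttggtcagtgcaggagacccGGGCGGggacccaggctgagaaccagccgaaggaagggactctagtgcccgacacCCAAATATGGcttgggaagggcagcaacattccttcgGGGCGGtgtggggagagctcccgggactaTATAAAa

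The motifs searched were TATAAA (the TATA box), CCAAT (the CCAAT box), GGGCGG (the GC box), CAGCTG (an E-box of the MyoD type), the CArG box, the MEF2 site, the DR1 element of nuclear receptors and the half-site of estrogen-related receptors. Of the 27025 promoters in the table, taking the first listed start of each gene, 13.0% hold TATAAA, 34.5% CCAAT, 32.9% GGGCGG and 12.8% CAGCTG. The CArG box is in 1.40%, the MEF2 site in 3.01%, the DR1 element in 0.0370% and the half-site in 0.366%. Myh4 holds CAGCTG 67 bases before its start, a CArG box 104 bases before it and TATAAA 31 bases before it. Its MEF2 match, 182 bases before the start, overlaps a TATAAA on the other strand. Another TATAAA lies 213 bases before it. Acta1 holds CAGCTG 221 bases, a CArG box 73 bases, GC boxes 36 and 128 bases and TATAAA 7 bases before the start. Adipoq holds 3 CCAAT boxes and 1 CAGCTG, Ckm holds CAGCTG alone, and the Ucp1 window has none of these letters. These matches describe the letters and say nothing of binding. Promoters were found for 200 of 276 genes at least 8-fold higher in quadriceps (72.5%) and for 594 of 812 at least 8-fold higher in brown fat (73.2%), both with 10 CPM or more in the higher tissue. Both shares are under 80%, so a comparison of motifs between those gene sets is void.

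Across all genes the balance lay toward brown fat. The median log2 ratio was 0.54, with an interquartile range from 0.0077 to 1.44, and 12874 genes (76.3%) had a positive value. Past 4-fold, 2387 genes (14.1%) were higher in brown fat and 569 (3.37%) higher in quadriceps. Because 1 CPM is added to each level, a gene under 1 CPM in both tissues cannot pass 4-fold. The shares of all genes therefore include genes that could not be called. Of the 9282 genes with at least 10 CPM in either tissue, 2131 were past it toward brown fat and 529 toward quadriceps. At 2-fold the shares of all genes were 36.3% and 7.65%, and at 8-fold 4.86% and 1.65%. These shares depend on how the tables are scaled to each other. They were then scaled so that the median ratio of the 6299 genes with at least 10 CPM in both tissues was 1. The counts past 4-fold over all genes became 1359 and 884. That scaling lowers a well-measured gene's log2 ratio by 0.62, so a value near 0.6 is the ratio of a typical well-measured gene. The share of calls toward brown fat was 80.8% before and 60.6% after. Where that scaling moves a list's count past 4-fold by more than 1.5 times, the new count is given beside it. No list median changed sign with it.

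The tissues also differed in how much of the mRNA a few genes held. Myh4 alone took 10.2% of all counts in quadriceps, while Scd1 took 1.72% in brown fat. The 10 genes of highest CPM held 28.1% of counts in quadriceps and 9.27% in brown fat, and the 100 highest held 51.4% and 27.8%. It took 86 genes to reach 50% of the counts in quadriceps and 548 in brown fat. The 10 in quadriceps were Myh4, the calcium pump gene Atp2a1 (35073 CPM), the giant sarcomere proteins Ttn (30366 CPM) and Neb (19851 CPM), the troponin gene Tnnt3 (24918 CPM), Acta1, the tropomyosin gene Tpm1 (14037 CPM), Ckm, the ribosomal RNA precursor Rn45s (12103 CPM) and Pdk4 (10834 CPM). Pdk4, a kinase that shuts pyruvate out of the citrate cycle, was also high in brown fat at 4051 CPM. Among the 10 in brown fat were Scd1, the fatty acid carrier Fabp4 (14081 CPM), the triglyceride-splitting lipase Lpl (12798 CPM), Pck1 (8007 CPM), the fatty acid synthase gene Fasn (7504 CPM), the secreted peroxidase Gpx3 (7417 CPM), the ATP synthase subunit gene Atp5b (7246 CPM), glutamine synthetase Glul (5768 CPM) and Rn45s (5548 CPM). Levels in this list scale with transcript length as well as with molecule number. Per kb of exon, Fabp4 led the protein-coding genes of brown fat with 15716 CPM per kb and Tnnt3 exceeded Myh4 in quadriceps, with 21371 against 16925 CPM per kb.

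The 15 genes of largest difference toward brown fat, among those with at least 50 CPM there, had log2 ratios from 7.15 to 11.46. After Ucp1 came Cidea, a lipid droplet protein (2917 against 2.81 CPM, log2 ratio 9.58), and Slc27a2, which activates very long fatty acids (636 against 0.269 CPM, 8.97). Kcnk3, a potassium channel, had 1024 against 1.34 CPM (8.77). Fasn reached 8.52, and the elongases Elovl3 and Elovl6 reached 8.08 and 7.94. Pck1, which makes the glycerol backbone of triglycerides in fat, had 8007 against 42.2 CPM (7.54), and Cdo1, cysteine dioxygenase, had 4204 against 22.2 CPM (7.50). Prkar2b, a regulatory subunit of the cAMP-dependent kinase, had 1072 against 5.63 CPM (7.34). The remaining members were Aspg, Cyp2b10, the amino acid transporter gene Slc36a2, Adtrp and the apolipoprotein gene Apoc1, with log2 ratios from 7.15 to 8.71.

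The 15 genes of largest difference toward quadriceps, chosen the same way, had smaller log2 ratios, from -6.47 to -5.09. Cep85l led with 0.652 against 145 CPM. Neb, the ruler of the thin filament, had 248 against 19851 CPM (-6.32), and Xirp2, an actin-binding protein of muscle, 77.8 against 6240 CPM (-6.31). Actc1, the cardiac form of actin, had 8.61 against 725 CPM (-6.24). Ttn had 549 against 30366 CPM (-5.79). Ppp1r3a, which docks a phosphatase on glycogen, had 14.2 against 889 CPM (-5.87), and Mstn, the secreted brake on muscle growth, had 5.82 against 231 CPM (-5.09). Eya4, a transcriptional coactivator, had 0.738 against 88.4 CPM (-5.68). Cmya5, Ttll7, Slc7a2, Igfn1, Mylk4 and Fbxo40 made up the rest with Zbed6. The exons of Zbed6 lie 100% within another gene on the same strand, so its reads cannot be assigned to it with certainty.

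Genes of 38 lists were then read against those background shares. The plot of list members gives every value, and the accounts below name the members that a fixed rule picks, of largest ratio or highest level, with a few others chosen after their values were seen.

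**Figure D2:**
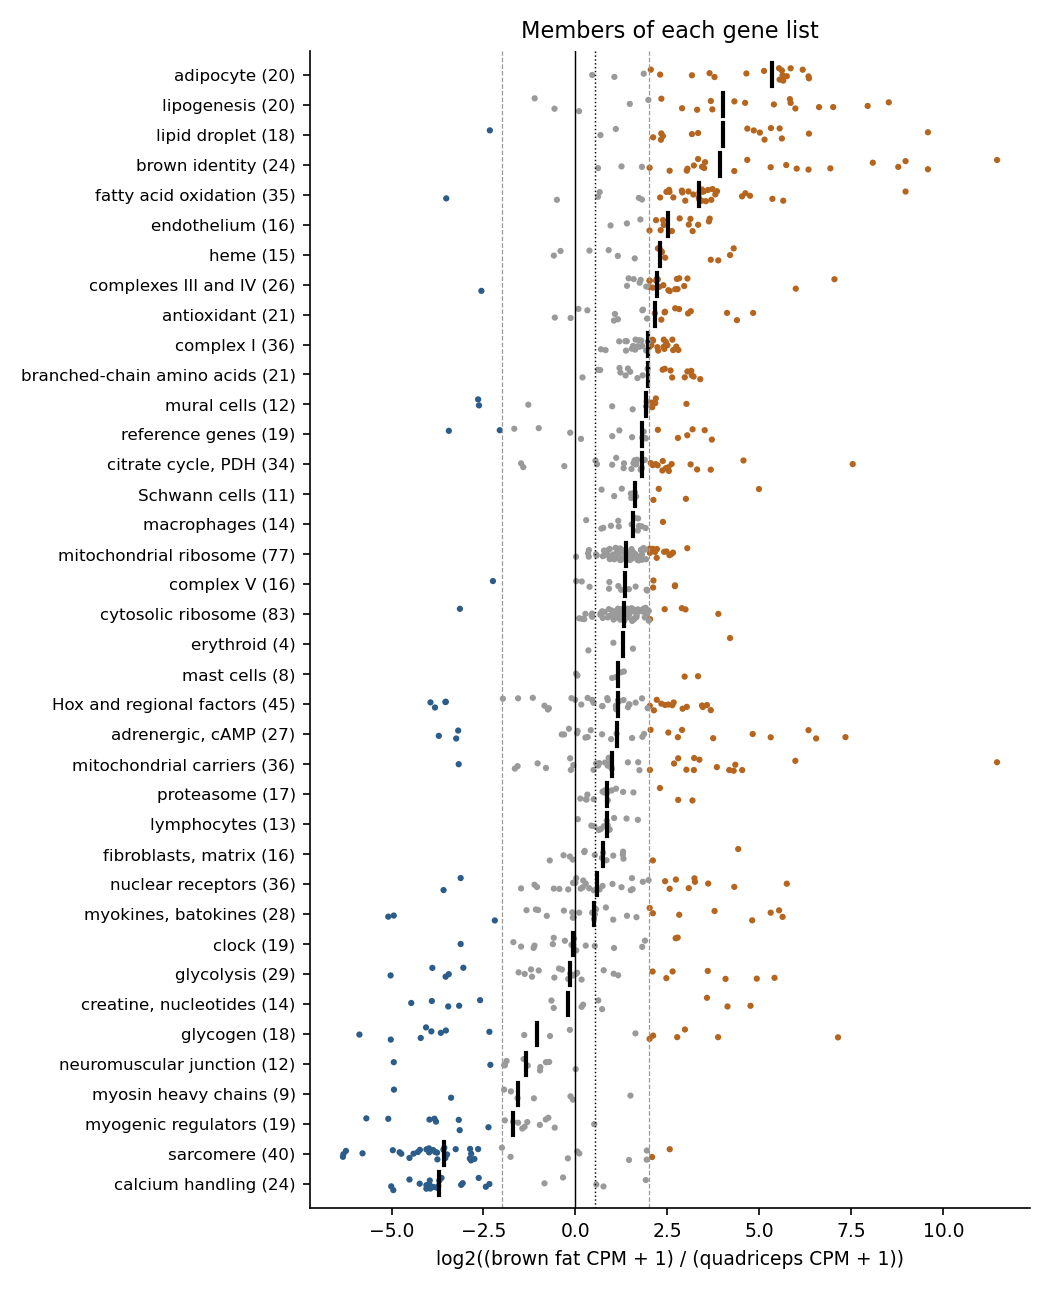
Each point is a member of a gene list, placed by its log2 ratio on the x axis, with the number of members measured in brackets. Thick bars are list medians, the dotted line is the all-gene median of 0.54 and the dashed lines are 4-fold. Adipocyte, lipogenesis and lipid droplet genes have the highest medians, and sarcomere and calcium handling genes the lowest.

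Of 24 measured genes of brown adipocyte identity and heat production, 21 were past 4-fold toward brown fat and none toward quadriceps, with a median of 3.92. Beside Ucp1, Cidea, Slc27a2 and Kcnk3, high members included Otop1, a proton channel (137 against 0.137 CPM, log2 ratio 6.93), and Dio2, which activates thyroid hormone (130 against 1.02 CPM, 6.01). Among transcription factors that set up the brown lineage, Ebf2 had 80.8 against 6.24 CPM and Prdm16 had 35.3 against 2.90 CPM. The 3 members that were not past 4-fold are used by both tissues. They were the heart-type fatty acid carrier Fabp3 (227 against 148 CPM, log2 ratio 0.61), Ppargc1a (69.7 against 28.7 CPM, 1.25) and Cpt1b (23.0 against 5.86 CPM, 1.81). Fabp3 moves to the other side of 0, at -0.0049, when the tables are scaled by their median ratio. The exons of Cpt1b are 94.8% shared with another gene on the same strand in the annotation. Its levels in both tissues, and so its ratio, may not be its own and are uncertain.

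General adipocyte genes had the highest median of the 38 lists, 5.33, with 17 of 20 past 4-fold toward brown fat. Plin1, the coat protein of the large lipid droplet, had 759 against 8.34 CPM (log2 ratio 6.35), and Cebpa and Pparg, the transcription factors of fat cell differentiation, had 645 against 7.94 and 390 against 6.31 CPM. Adrb3, the adrenergic receptor of fat cells, had 212 against 1.64 CPM (6.33). Fabp4 in quadriceps was at 1.99% of its brown fat level and Adipoq at 1.95%, whereas Ucp1 was at 0.00858%. All 20 genes were listed above 0 in quadriceps, where together they held 0.368% of counts against 4.98% in brown fat. How much of their level in quadriceps comes from adipocytes between muscle fibres was not tested.

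Lipid synthesis and storage genes followed the same direction. Of 20 lipogenesis genes 15 were past 4-fold toward brown fat, none the other way, with a median of 4.02. Fasn, Elovl6 and Scd1 led, followed by Agpat2 (657 against 5.68 CPM, log2 ratio 6.62), which adds the second fatty acid to glycerol, and Slc25a1 (229 against 2.66 CPM, 5.98), which exports citrate for fatty acid synthesis. Lpin1, a phosphatidate phosphatase, and Gpam, the first acyltransferase of the pathway, had higher levels in quadriceps, with log2 ratios of -1.11 and -0.57. Me1, malic enzyme, was near equal at 232 against 217 CPM, and lies below 0 with median-ratio scaling. Lipid droplet genes had 15 of 18 past 4-fold toward brown fat and 1 toward quadriceps (median 4.00). That 1 was Fitm1, a protein of lipid droplet budding, with 5.45 against 31.4 CPM (-2.33), while its relative Fitm2 had 115 against 53.1 CPM.

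Fatty acid oxidation was the fuel pathway with the highest median, 3.37, and 29 of its 35 genes were past 4-fold toward brown fat. The 4 straight-chain dehydrogenases that open each cycle were all higher, from Acadl (3936 against 426 CPM, log2 ratio 3.20) to Acads (458 against 30.9 CPM, 3.85). Acaa2, the thiolase that ends each cycle, had 2037 against 75.1 CPM (4.74), and Acsl1, which activates fatty acids, 4235 against 569 CPM (2.89). Acsl6 was the 1 gene past 4-fold toward quadriceps, at 0.948 against 21.2 CPM (-3.51), and 33 of the 35 had positive ratios. Citrate cycle genes differed less. Of 34 genes of the cycle and pyruvate entry, 15 were past 4-fold toward brown fat and none toward quadriceps, with a median of 1.79. With median-ratio scaling these counts became 5 and 2. Pck1 and Pck2 (107 against 3.57 CPM, 4.57) had the largest ratios and are not cycle enzymes proper. The kinase Pdk4 and the phosphatase Pdp1, which act on pyruvate dehydrogenase in opposite directions, were both higher in quadriceps, with log2 ratios of -1.42 and -1.48.

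Most respiratory chain genes were higher in brown fat, by a smaller margin than fatty acid oxidation genes. Ratios ran from -2.56 to 7.04 in complexes III and IV and from -2.24 to 2.71 in ATP synthase. Those of complex I were more even. All 36 measured complex I subunits had positive ratios, between 0.69 for Ndufs1 and 2.80 for Ndufa1, and 17 were past 4-fold (median 1.97), or 4 with median-ratio scaling. Of 26 genes of complexes III and IV with cytochrome c, 19 were past 4-fold toward brown fat and 1 toward quadriceps (median 2.23), or 9 and 1 with median-ratio scaling. ATP synthase stood lowest, with 4 of 16 past 4-fold toward brown fat, 1 toward quadriceps and a median of 1.35, or 2 and 1 past 4-fold with median-ratio scaling. Its catalytic beta subunit Atp5b had 7246 against 1667 CPM (2.12). Atp5g1, 1 of 3 genes for the proton-carrying ring subunit, had 11.6 against 58.5 CPM (-2.24), and Atp5g3 had 240 against 184 CPM (0.38, below 0 with median-ratio scaling). Copies of several small subunit genes elsewhere in the genome could share their reads, and values as low as that of Atp5l (4.13 against 1.29 CPM) are uncertain for that reason.

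Some respiratory subunits exist as a muscle and a general form, and here the ratios were far from even. Cox6a1, the general form of a cytochrome c oxidase subunit, had 1444 against 9.98 CPM (log2 ratio 7.04), and Cox6a2, the form of heart and muscle, had 35.7 against 215 CPM (-2.56). Per kb of exon, Cox6a1 made up 98.0% of the pair in brown fat and Cox6a2 made up 94.8% in quadriceps. Cox8a, the general form of another subunit, had 812 against 11.8 CPM (5.99). Cox8b, its heart and muscle form, was also higher in brown fat, with 1075 against 129 CPM (3.04), and led its pair in both tissues, with 66.9% and 94.4% of the per-kb sum. Cox7a1, the muscle form of 1 more subunit, had 366 against 89.8 CPM (2.01). Of these 3 muscle forms, 2 were thus at higher CPM in brown fat than in quadriceps and 1 was lower.

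Mitochondrial carriers split by partner. Of 36 carrier genes 14 were past 4-fold toward brown fat and 1 toward quadriceps, with a median of 0.98, or 13 and 3 with median-ratio scaling. Ucp1 made up 95.7% of the uncoupling family per kb in brown fat, and Ucp3 made up 98.3% in quadriceps, with 553 CPM there and 185 CPM in brown fat. Slc25a4, the ADP/ATP exchanger of muscle, had 551 against 1727 CPM (log2 ratio -1.65), while its relative Slc25a5 had 291 against 19.3 CPM (3.84). Their per-kb shares were 55.0% and 45.0% in brown fat, and 98.3% and 1.71% in quadriceps. Slc25a12, which carries aspartate and glutamate, was the carrier past 4-fold toward quadriceps (34.7 against 321 CPM, -3.17).

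Families of related genes were compared next, as 30 families fixed as a list. Only some of them set a muscle form against forms of other tissues. For 29 of them at least 2 members were listed in both tables. The member with the highest CPM per kb differed between tissues in 10 of those, and in 9 the family held members past 4-fold in both directions. Among the 10 is carnitine palmitoyltransferase 1, led by Cpt1b in brown fat (61.6%) and Cpt1a in quadriceps (60.1%). Both leads rest on the uncertain levels of Cpt1b. Exon lengths are the union of all annotated transcripts, so a rare long transcript lowers a gene's per-kb value. In brown fat Ckm, Pygm, Pgam2 and Pfkm were at 6.67%, 5.98%, 6.56% and 9.16% of their quadriceps level. The fast fibre isoforms described below had a median of 6.31%. Cox6a2 and Slc25a4 were higher, at 16.6% and 31.9%. How much of the brown fat share of such muscle forms comes from muscle taken along was not tested.

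**Figure D3:**
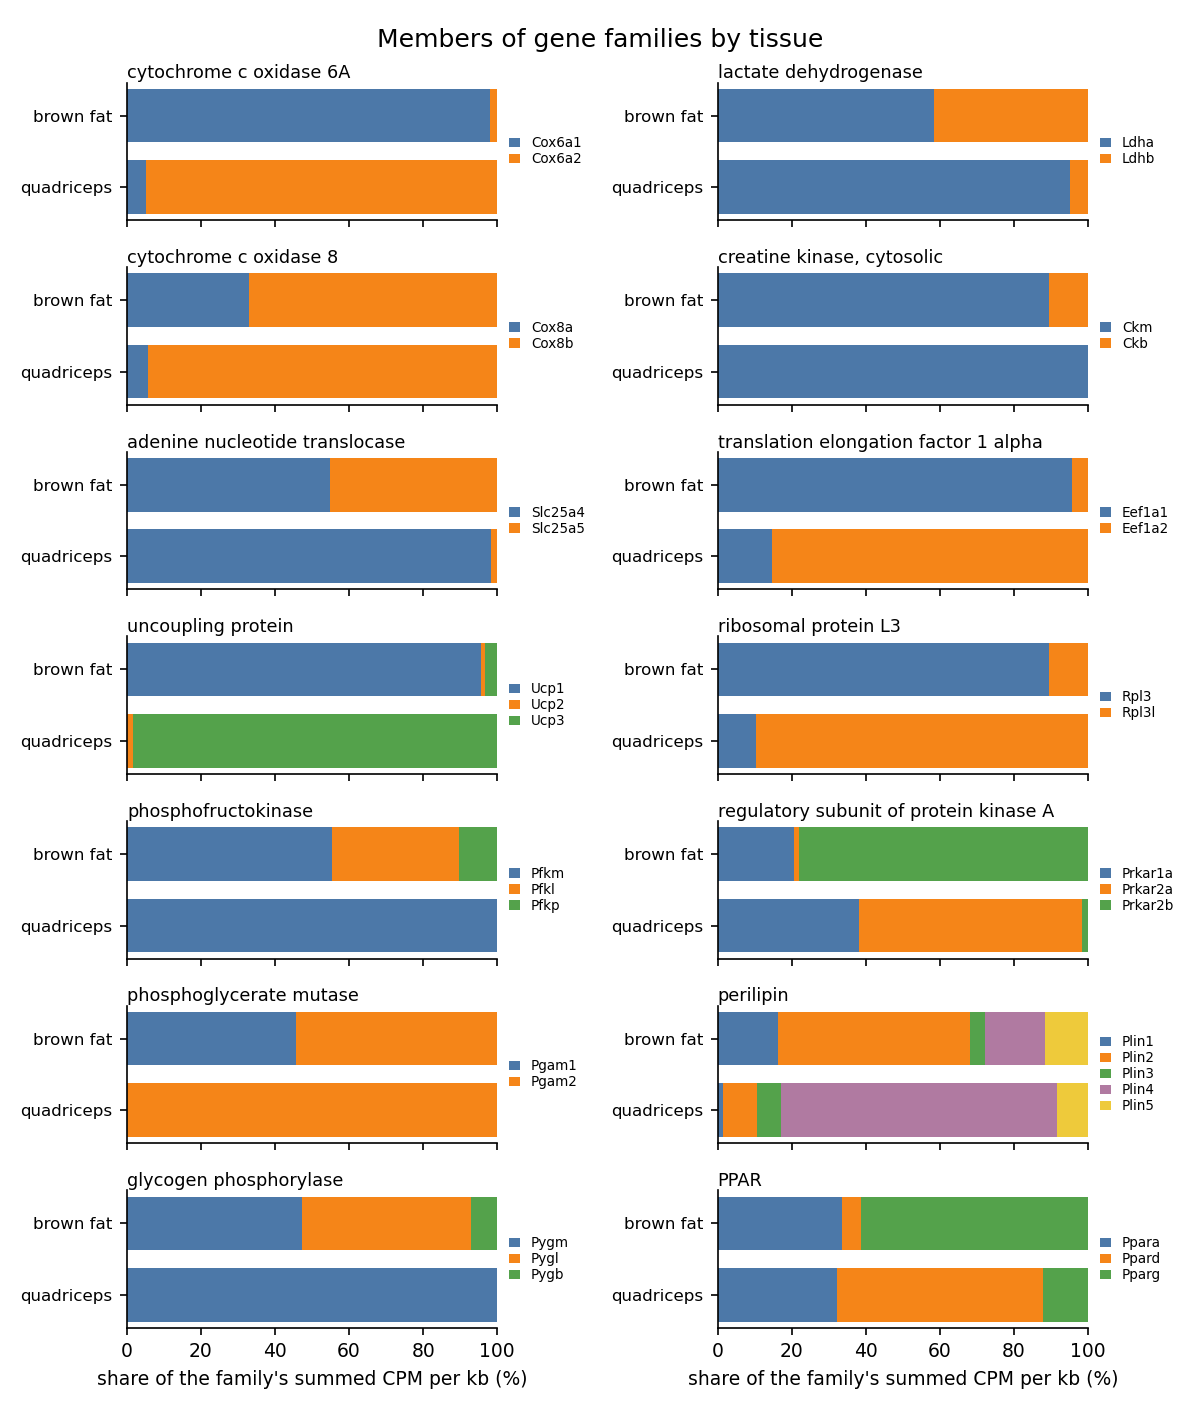
For 14 of the families, bars give each member's share of the family's summed CPM per kb of exon, in brown fat (upper bar) and quadriceps (lower bar). Quadriceps bars are nearly 1 colour in the glycolytic and glycogen families, while brown fat bars hold 2 or 3 members.

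Glycolysis genes as a list were close to balanced, with 7 of 29 past 4-fold toward brown fat, 5 toward quadriceps and a median of -0.14, below the all-gene median of 0.54. With median-ratio scaling the counts became 5 and 7. Members of the same steps went opposite ways. For phosphofructokinase, the step that commits glucose to glycolysis, Pfkm had 323 against 3526 CPM (log2 ratio -3.45), Pfkl had 249 against 4.88 CPM (5.41) and Pfkp had 85.3 against 4.11 CPM (4.08). For phosphoglycerate mutase, Pgam2 had 34.1 against 520 CPM (-3.89) and Pgam1 had 60.7 against 1.03 CPM (4.93). Ldha, which makes lactate, was near equal by CPM (1215 against 1392), while Ldhb had 594 against 48.2 CPM (3.60). Slc16a3, which exports lactate, had 4.66 against 183 CPM (-5.03), and Slc16a1, the related importer, 231 against 40.8 CPM (2.47). Shared steps were less divided. Hk2, the hexokinase of both tissues, had 297 against 295 CPM, and the insulin-regulated glucose transporter Slc2a4 had 320 against 437 CPM. The log2 ratio of Hk2 was 0.0081 and becomes -0.61 with median-ratio scaling. Aldoa, aldolase, had the highest CPM of the list in both tissues (4051 against 10547).

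Glycogen genes leaned to muscle. Of 18, 8 were past 4-fold toward quadriceps and 6 toward brown fat, with a median of -1.04. Pygm, the muscle form of the phosphorylase that breaks glycogen down, had 516 against 8634 CPM (log2 ratio -4.06). Pygl, the liver form, had 580 against 3.13 CPM (7.14), and Pygb, the brain form, 107 against 6.36 CPM (3.88). In quadriceps Pygm was 99.9% of the family per kb, and in brown fat Pygm and Pygl were near parity at 47.2% and 45.6%. With median-ratio scaling the list counts became 9 and 4. The same split ran through phosphorylase kinase, which switches the enzyme on. Its muscle alpha subunit Phka1 had 42.5 against 1411 CPM (-5.02) and its liver alpha subunit Phka2 had 79.7 against 10.9 CPM (2.76). Phkg1 and Phkg2, the muscle and liver catalytic subunits, had log2 ratios of -3.92 and 2.01.

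Upstream windows of the 2 main phosphorylase genes and of Cox6a1 are printed as examples of paired forms with opposite ratios. Pygl is at chr12:70227684-70227933, minus strand, Pygm at chr19:6384158-6384407, plus strand and Cox6a1 at chr5:115348959-115349208, minus strand, all from RefSeq on GRCm38.p6, with capitals as before.
Pygl: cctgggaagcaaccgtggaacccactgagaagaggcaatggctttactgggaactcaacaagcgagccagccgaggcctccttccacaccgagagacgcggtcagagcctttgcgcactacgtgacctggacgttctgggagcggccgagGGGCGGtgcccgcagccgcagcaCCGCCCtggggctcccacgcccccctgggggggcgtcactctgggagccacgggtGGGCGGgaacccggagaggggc
Pygm: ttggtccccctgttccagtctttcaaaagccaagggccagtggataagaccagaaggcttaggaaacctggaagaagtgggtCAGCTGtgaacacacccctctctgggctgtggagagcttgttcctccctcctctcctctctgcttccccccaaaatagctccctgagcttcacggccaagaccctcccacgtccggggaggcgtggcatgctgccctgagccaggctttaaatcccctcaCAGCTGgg
Cox6a1: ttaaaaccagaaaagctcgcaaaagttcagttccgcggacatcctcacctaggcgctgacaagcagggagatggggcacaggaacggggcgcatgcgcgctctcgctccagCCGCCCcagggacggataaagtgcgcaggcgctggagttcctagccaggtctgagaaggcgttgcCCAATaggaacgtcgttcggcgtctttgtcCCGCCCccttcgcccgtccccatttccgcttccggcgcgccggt

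Pygm, the form of muscle, holds CAGCTG 8 and 168 bases before its start. Pygl holds GC boxes 22, 77 and 100 bases before its start and no CAGCTG. Cox6a1 holds GC boxes 44 and 139 bases and a CCAAT box 74 bases before its start. CpG dinucleotides were at 0.191 of the number expected from base composition in the Pygm window, 0.670 in that of Pygl and 1.06 in that of Cox6a1.

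Energy buffering by creatine and nucleotides showed the same paired pattern. Ckm had 903 against 13541 CPM and the brain form Ckb 56.5 against 1.13 CPM (log2 ratio 4.76), though Ckm remained 89.6% of the pair per kb in brown fat. Ckmt2, the creatine kinase of muscle mitochondria, had 96.8 against 874 CPM (-3.16). Ampd1, the AMP deaminase of muscle, had 39.7 against 896 CPM (-4.46) and Ampd2 had 29.1 against 1.53 CPM (3.57). Ak1, the adenylate kinase of the cytosol, had a log2 ratio of -3.46. In all, 5 of 14 genes of this list were past 4-fold toward quadriceps and 3 toward brown fat.

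Protein synthesis genes included 2 more such switches. Eef1a1, the common form of the elongation factor that brings tRNA to the ribosome, had 2276 against 199 CPM (log2 ratio 3.51), and Eef1a2, the form of muscle and neurons, 123 against 1345 CPM (-3.44). Rpl3 and its muscle relative Rpl3l had 241 against 29.5 CPM (2.99) and 33.2 against 301 CPM (-3.14). Rpl3 was 89.6% of that pair per kb in brown fat and Rpl3l was 89.6% in quadriceps. Among the 83 cytosolic ribosomal protein genes, Rpl3l was the 1 past 4-fold toward quadriceps, and the median was 1.31. Toward brown fat 5 were past it (6.02%, below the 14.1% of all genes), or 3 with median-ratio scaling. Ribosomal protein genes and Eef1a1 have many processed copies, so their levels are uncertain.

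Contractile genes gave the reverse of the adipose lists. Of 40 sarcomere genes 30 were past 4-fold toward quadriceps and 2 toward brown fat, with a median of -3.58. Of 24 genes of calcium handling and excitation 19 were past 4-fold toward quadriceps and none toward brown fat (median -3.72). Ryr1, the calcium release channel, had 354 against 6671 CPM (log2 ratio -4.23), and Cacna2d1, a subunit of the voltage sensor, had 28.0 against 934 CPM (-5.01). Trdn, which anchors calcium stores to that channel, had 96.6 against 3018 CPM (-4.95). The sarcomere list, which leaves out the myosin heavy chains, held 18.4% of all counts in quadriceps and 1.01% in brown fat. The 9 myosin heavy chains, a list of their own, held 10.8% and 0.417%.

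The 2 sarcomere genes past 4-fold toward brown fat were troponins of slow fibres, Tnni1 (37.1 against 5.45 CPM, log2 ratio 2.56) and Tnnc1 (42.9 against 9.38 CPM, 2.08). With median-ratio scaling neither was past it. A grouping by fibre type was then made, after the values were seen, of 15 isoforms of fast fibres and 10 of slow or cardiac fibres. All 15 fast isoforms were lower in brown fat, 14 of them past 4-fold, at 3.27% to 26.0% of their quadriceps level with a median of 6.31%. Of the slow isoforms 9, all but Casq2, were higher in brown fat. The slow group ranged from 51.8% to 680% of the quadriceps level, with a median of 332%. Myh7, the slow myosin heavy chain, had 168 against 58.8 CPM (1.49), Tnnt1 83.6 against 21.1 CPM (1.94) and Myl2 65.3 against 23.2 CPM (1.45). Some of these genes, Atp2a2 and Tpm3 among them, are also used outside striated muscle. With median-ratio scaling the slow genes Myl3 and Myoz2 move from 0.11 and 0.05 to -0.49 and -0.55, which leaves 7 of 10 above 0.

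The makeup of the myosin heavy chains also differed. As a share of their summed CPM, without scaling by length, Myh4 made up 94.6% of the 9 chains in quadriceps and 79.8% in brown fat. Myh1, Myh2 and Myh7 made up 4.59%, 0.692% and 0.0547% in quadriceps, and 11.3%, 4.63% and 4.02% in brown fat. Myh3 and Myh8, the embryonic and perinatal chains, were under 0.1% in both tissues. Myh7, the slow chain, thus took a larger share in brown fat, as did the fast chains Myh1 and Myh2. Whether this reflects muscle taken along with the brown fat, which lies among muscles of the upper back, or mRNA of brown adipocytes was not tested.

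**Figure D4:**
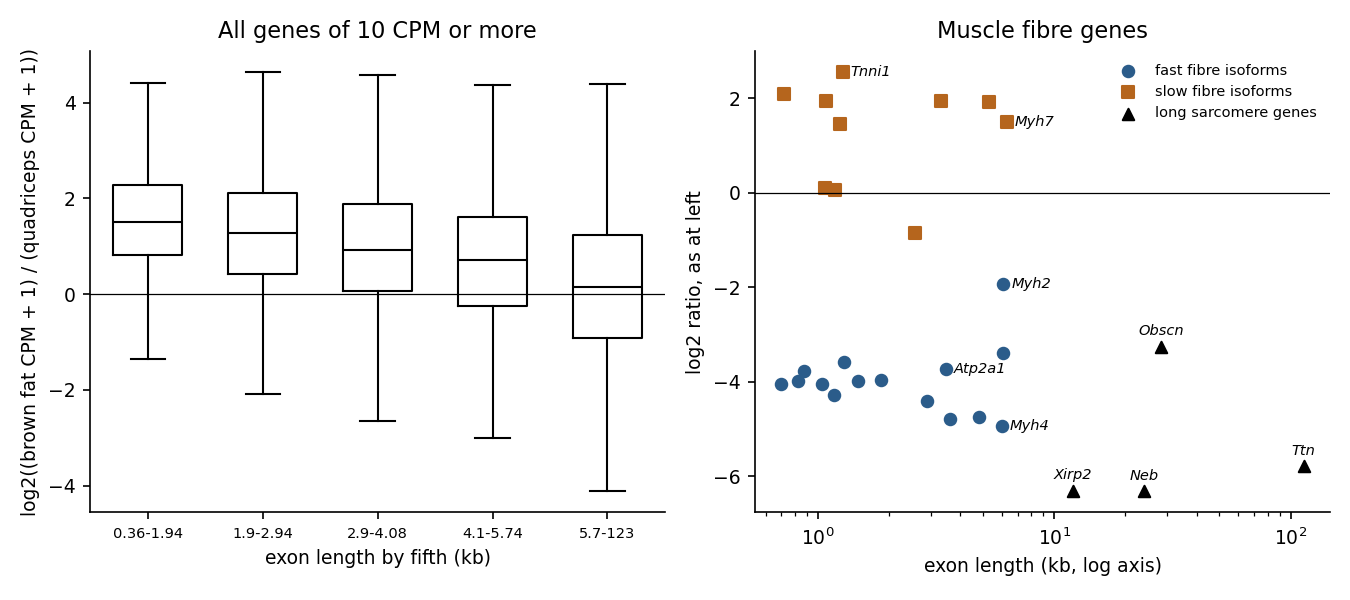
Left, log2 ratios of 9142 protein-coding genes with at least 10 CPM in either tissue, by exon length in 5 equal classes, with boxes for the interquartile range, a line for the median and whiskers to 1.5 times the box. Right, log2 ratio against exon length (log axis) for fast isoforms (circles), slow isoforms (squares) and long sarcomere genes (triangles). Medians go from 1.51 in the shortest class to 0.14 in the longest. The fast and slow groups were made after the values were seen, so their lying apart is a description only.

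Muscle regulators and synapse genes were low in brown fat. Of 19 myogenic regulators 8 were past 4-fold toward quadriceps, with a median of -1.69 and none past it toward brown fat, or 12 and 0 with median-ratio scaling. Mef2c, a transcription factor of muscle genes, had 35.9 against 524 CPM (log2 ratio -3.83) and Smyd1, a muscle methyltransferase, 35.0 against 563 CPM (-3.97). Pax7, the marker of muscle stem cells, was under 1 CPM in both tissues, with 0.0893 CPM in brown fat (0.0410 to 0.169) and 0.905 CPM in quadriceps (0.764 to 1.06). Of 12 genes of the neuromuscular junction, 2 were past 4-fold toward quadriceps, or 5 with median-ratio scaling. Musk, the receptor kinase that organizes the junction, had 0.650 against 49.6 CPM (-4.94), while its partner Lrp4 had 2.60 against 4.91 CPM (-0.72). The other gene past 4-fold was Ache, the esterase that clears acetylcholine (1.41 against 11.0 CPM, -2.31).

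Hox genes, whose paralog groups follow position along the body axis, were divided by group. All 21 Hox genes of groups 1 to 8 that both tables list were higher in brown fat, a tissue of the upper trunk, with 10 past 4-fold, none past it toward quadriceps and a median of 1.96. With median-ratio scaling the 21 stayed above 0 and 6 were past 4-fold. Hoxa5 was the highest of these in ratio, with 51.7 against 3.11 CPM (log2 ratio 3.68), followed by Hoxb4 with 21.5 against 0.887 CPM (3.57). Of the 7 of groups 9 to 13, 2 were past 4-fold toward quadriceps, none toward brown fat, and 2 had positive ratios. Hoxa10 had 0.0444 against 11.1 CPM and Hoxc9 had 0.0517 against 11.1 CPM (both -3.53). Hoxc10 was listed for quadriceps alone, at 108 CPM. If it had 3 reads or fewer in brown fat, its level was at least 3644-fold higher in quadriceps. Hoxc11, Hoxa11, Hoxa13 and Hoxd13 were likewise listed for quadriceps alone, at 2.11, 0.300, 0.263 and 0.0521 CPM. Hoxb9 and Hoxd9 did not follow the other group 9 genes, with log2 ratios of 0.74 and 0.33, of which that of Hoxd9 lies below 0 with median-ratio scaling. Neighbouring Hox genes overlap in the annotation, and 68.6% of the exons of Hoxd3 are shared on the same strand.

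**Figure D5:**
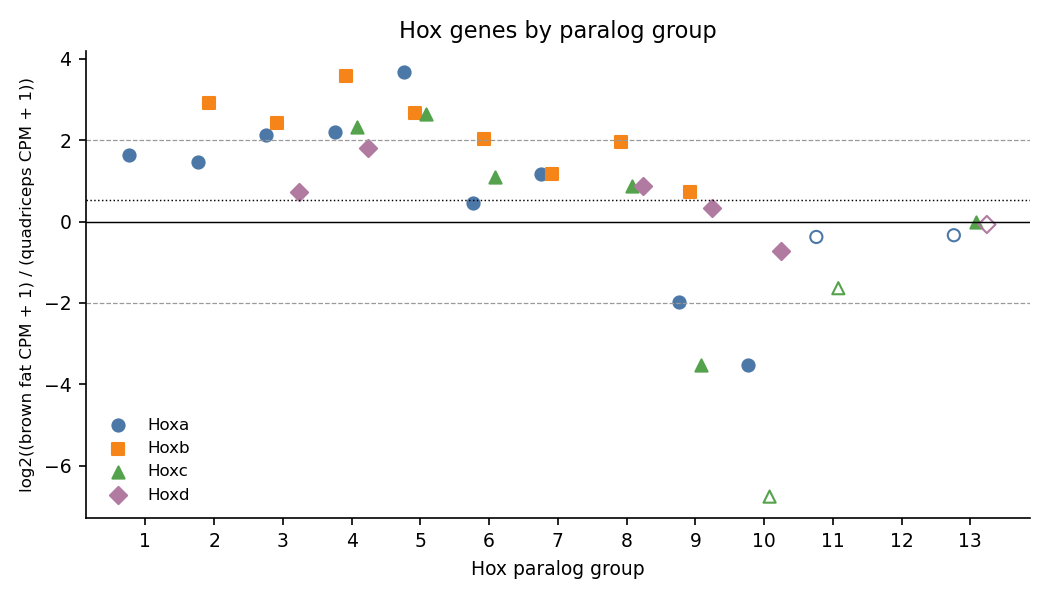
Log2 ratio (y axis) of each Hox gene by paralog group (x axis), with marker shapes for the 4 clusters. Filled markers are listed in both tables and open markers in quadriceps alone, where brown fat was set to 0. Dashed lines mark 4-fold and the dotted line the all-gene median of 0.54. Groups 1 to 8 lie above the solid line at 0, and the values turn negative from group 9 on for Hoxa and Hoxc.

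Other regional factors also went both ways. Lhx8 (10.1 against 0.0195 CPM, log2 ratio 3.44), Meis2 (20.2 against 0.919 CPM, 3.46) and Zic1 (14.2 against 0.864 CPM, 3.03) were higher in brown fat. Tbx15, a factor of trunk and limb mesenchyme, had 22.6 against 361 CPM (-3.94), and Tbx1 had 1.13 against 29.0 CPM (-3.82). The list of Hox and regional factors together had 14 of 45 past 4-fold toward brown fat and 4 toward quadriceps.

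The adrenergic pathway, through which cold activates brown fat, had 10 of 27 genes past 4-fold toward brown fat and 3 toward quadriceps (median 1.12). Among receptors Adrb3 and Adra1a (94.7 against 1.42 CPM, log2 ratio 5.31) were high in brown fat. The adenylate cyclase Adcy3, which makes cAMP, had 271 against 1.92 CPM (6.54). Downstream, the regulatory subunits of the cAMP-dependent kinase differed in kind. Prkar2b was 77.9% of the 3 measured per kb in brown fat, and Prkar2a was 60.0% in quadriceps, with 29.4 against 276 CPM (-3.19). Phosphodiesterases, which break cAMP down, split likewise, with Pde3b at 434 against 14.4 CPM (4.82) and Pde7a at 16.4 against 227 CPM (-3.71).

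Among nuclear receptors and their coactivators, 9 of 36 were past 4-fold toward brown fat and 2 toward quadriceps, with a median of 0.58, close to that of all genes. Pparg (log2 ratio 5.74) and Ppara (317 against 25.1 CPM, 3.61) were high in brown fat, whereas Ppard had 46.8 against 40.3 CPM (0.21, and -0.40 with median-ratio scaling). Ppargc1b, the relative of Ppargc1a, differed more than Ppargc1a did, with 90.0 against 3.57 CPM (4.32). Rora, a receptor of the clock, had 71.5 against 630 CPM (-3.12). Clock genes had a median of -0.06, with 2 of 19 past 4-fold toward brown fat and 1 toward quadriceps, or 2 and 3 with median-ratio scaling. The 2 were 10.5% of the clock list, below the 14.1% of all genes.

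Supporting pathways of mitochondria were read next. Of 21 genes of branched-chain amino acid breakdown 10 were past 4-fold toward brown fat and none toward quadriceps (median 1.96), led by Hibch at 484 against 45.2 CPM (log2 ratio 3.39). Heme genes had 9 of 15 past 4-fold that way (median 2.29), or 4 with median-ratio scaling, including Alas2 (88.8 against 3.88 CPM), which is best known from red cell precursors. Of 8 erythroid marker genes 4 were listed in both tables, and beside Alas2, which is itself on that list, Slc4a1, the anion exchanger of red cells, had 3.19 against 0.419 CPM. All 4 had positive ratios. Without Alas2 the summed level of the other 3 was 5.16 against 0.757 CPM. The part of red cells in the value of Alas2 was not tested. Antioxidant genes had 11 of 21 past 4-fold toward brown fat (median 2.16), or 7 with median-ratio scaling, with Gpx3 at 7417 against 260 CPM (4.83). All 77 mitochondrial ribosomal protein genes were above 0, with a median of 1.37. Of them 12 (15.6%) were past 4-fold, beside 14.1% of all genes and 2131 of the 9282 with at least 10 CPM in either tissue. With median-ratio scaling 72 were above 0 and 3 past 4-fold.

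Markers of other cells of the tissues differed by cell type. Endothelial genes had 13 of 16 past 4-fold (median 2.51), or 8 with median-ratio scaling, led by Cldn5, a tight junction protein (74.1 against 4.99 CPM, log2 ratio 3.65), and Cdh5 at 536 against 86.5 CPM (2.62). The summed level of these 16 was 5.65 times higher in brown fat. Macrophage markers had 1 of 14 past 4-fold (0 with median-ratio scaling) and a median of 1.57, mast cell markers 2 of 8 and 1.16, and Schwann cell markers 4 of 11 (2 with median-ratio scaling) and 1.61, with S100b (52.2 against 0.677 CPM, 4.99) also known from fat cells. None of 13 lymphocyte markers was past 4-fold, and 11 of them were under 2 CPM in both tissues. Fibroblast genes were near the all-gene median, at 0.73, with 2 of 16 past 4-fold toward brown fat, or 1 with median-ratio scaling. The shares past 4-fold of macrophage (7.14%), lymphocyte (0%) and fibroblast (12.5%) markers were below the 14.1% of all genes. Mural cell genes went both ways, with 5 of 12 past 4-fold toward brown fat (1 with median-ratio scaling) and 2 toward quadriceps. The 2 were Des (386 against 2422 CPM, -2.65) and Abcc9 (67.4 against 420 CPM, -2.62), and both are also expressed in muscle fibres. Secreted factors of muscle and brown fat had 8 of 28 past 4-fold toward brown fat, such as Nrg4 (76.2 against 0.951 CPM, 5.31), and 3 toward quadriceps, such as Fndc5 (11.0 against 53.9 CPM, -2.19).

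Log2 ratios went down with exon length. Over 9142 protein-coding genes with at least 10 CPM in either tissue, Spearman's correlation across genes was -0.31, given as a description since genes of a table share its libraries. The median was 1.51 in the shortest of 5 equal classes (0.36 to 1.94 kb) and 0.14 in the longest (5.75 kb and more). Past 4-fold toward brown fat were 33.1% of the shortest and 12.2% of the longest, and toward quadriceps 3.55% and 10.3%. Short transcripts include respiratory and ribosomal genes, and long ones include Ttn, Neb and Ryr1. Whether such genes account for the trend was not tested. Each of the 16710 joined genes with a length, at any level, was also centred on the median of its length class. This alternative was chosen after seeing the data. Its 5 classes were cut over those 16710 genes, so its medians are not those given above. Whether the centring removes the trend described above was not tested. With it the counts past 4-fold were 2255 toward brown fat and 540 toward quadriceps. Of the genes past 4-fold among those the naming rule picks, 206 of 211 were still past it, and the 2 slow isoforms nearest 0, Myl3 and Myoz2, lay at -0.02 and -0.08.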

How the data were processed

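RNA of brown fat and quadriceps was sequenced from 16 libraries, 4 per genotype and tissue. Libraries were stranded and made from mRNA, per the labels' protocols. STAR 2.5.1b, DESeq2 1.10.1 and build mm9 are named in the submitters' processing notes, with no roles given. For the read counter and annotation the sources used here give no name. The deposited signal per gene is a mean normalized count, made by the authors per the file headers. That it pools both genotypes over 8 libraries was inferred from 8 recurring low values in each table, 1 for each library's single read, which also gave the depth estimates.

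The tables were joined on gene symbol and scaled to CPM with a pseudocount of 1 CPM. Python 3.11.15, pandas 2.3.3, NumPy 2.4.6 and SciPy 1.17.1 were used, and the procedure was tested on simulated data. The authors' genotype comparison was not used. No test was possible, since no values per library were analysed here. Exon lengths (GENCODE vM21, GRCm38) matched 16710 of the 16882 joined genes and no mm9 coordinate is printed.

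Members, lists and families were chosen with earlier results of these data known. Named genes were the markers, in each direction the 15 of largest ratio with at least 50 CPM and the 10 of highest CPM, in each list up to 5 of largest ratio and 3 of highest CPM, and all family members. Others were picked after their values were seen. The cytosolic ribosome list was narrowed to drop kinase genes that its symbol pattern had caught. Alternatives were other pseudocounts, scalings, filters, folds and a join of all genes. A few genes of the lists are counted but not reported here by name.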

Additional observations from a re-analysis of the deposited data

Results flagged for a closer look

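Genes listed in 1 table alone could not enter the comparison, and 2 of them reached 10 CPM. Hoxc10 stood at 108 CPM in quadriceps, above the level of 3 reads there, and is described with the Hox genes. Cpn2, a subunit of a plasma carboxypeptidase, stood at 12.5 CPM in brown fat. If Cpn2 had 3 reads or fewer in quadriceps, its level was at least 672-fold higher in brown fat.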

How the results depend on the processing

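The counts past 4-fold were 2387 toward brown fat and 569 toward quadriceps, and the all-gene median was 0.54. With a pseudocount of 0.1 CPM the brown fat count was 3787 and the median 0.92, and with 5 CPM they were 1282 and 0.26. Scaling by the median ratio gave 1359 and 884 with a median of 0.18. Leaving the 100 highest genes of either tissue out of the column sums gave 934 toward quadriceps and a median of 0.25. A fold of 2 gave 6123 and 1291, and a fold of 8 gave 821 and 279. Filters at 1 and 10 CPM, a join of all genes, and the 2 alternatives chosen after seeing the data (column sums without Rn45s, centring by exon length) kept both counts within 1.5 times. The filter at 1 CPM could not change these counts, since a gene under 1 CPM in both tissues cannot pass 4-fold. Of 305 genes that the naming rule picks, 211 were past 4-fold, and from 187 to 211 of them stayed past it on the same side under the pseudocounts, scalings and centring. None of those 211 changed sign under these. A pseudocount cannot change a sign, and median-ratio scaling shifts a ratio by 0.62, so those settings could not have shown otherwise. Of the other genes, 9 changed sign with median-ratio scaling. Genes named outside the rule, such as Me1 and Atp5g3, are not in these counts. Mitochondrially encoded genes are absent from both tables, so leaving them out gave no value. No paired analysis was possible because each table gives 1 mean per gene over its libraries, and for the same reason no replicate could be left out.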

Other observations

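Genes often used as loading references were themselves unequal between the tissues. Of 19 such genes, 6 were past 4-fold toward brown fat and 2 toward quadriceps, with a median log2 ratio of 1.81, or 5 and 3 with median-ratio scaling. Ppia, a peptidyl-prolyl isomerase, had 315 against 23.2 CPM (log2 ratio 3.71), and Actb, cytoplasmic actin, 1306 against 143 CPM (3.18). Gapdh had 802 against 1604 CPM, and Tfrc, the transferrin receptor, 11.5 against 51.1 CPM (-2.06). Polr2a had 128 against 116 CPM (0.15, and below 0 with median-ratio scaling). Ppia has many processed copies, so its level is uncertain. Proteasome core genes had a median of 0.87, and 3 of 17 were past 4-fold (17.6%, beside 14.1% of all genes). The 3 were the immune forms Psmb8 (26.3 against 2.01 CPM, 3.18), Psmb9 (2.79) and Psmb10 (2.30).

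Among long noncoding RNAs, chosen after their values were seen, Malat1 was near equal at 2119 CPM in brown fat and 2264 CPM in quadriceps. Neat1, the scaffold of nuclear paraspeckles, had 2452 against 661 CPM (log2 ratio 1.89). H19, an imprinted transcript, had 80.1 against 329 CPM (-2.02), and Meg3, also imprinted, 32.1 against 10.3 CPM (1.56). In the joined tables, 2 genes had at least 10 CPM in brown fat and 3 reads or fewer in quadriceps. They were Mmd2, with 18.9 against 0.0111 CPM (0.00112 to 0.0426), and Sgk2, with 14.8 against 0.00559 CPM (0.000102 to 0.0334). No gene met the reverse condition.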
